A study of Caenorhabditis elegans with 2 samples.

Results

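The genes described here are the 7 genes that encode the beta subunits of the proteasome core particle in Caenorhabditis elegans, pbs-1 to pbs-7, taken by their names in the Ensembl WBcel235 annotation. They are 7 of 19973 nuclear protein-coding genes. The data are chromatin immunoprecipitation sequencing (ChIP-seq) peak lists from 2 libraries, biological replicates 1 and 2, of whole L2 larvae with both sexes pooled. The larvae were of strain OP178, which carries unc-119(ed3) and the integrated transgene wgIs178, and per the labels stably express SKN-1 fused C-terminally to GFP and FLAG. There is no second condition, genotype or time point. The antibody and strain labels name SKN-1, whereas the free-text description of both samples names PHA-4, a forkhead factor of the pharynx, so that the labels disagree on the protein. Whole larvae mix all tissues, and a peak does not say in which cells the protein was bound. The SKN-1 isoforms that carry the tag and the extent of the transgene are not given in the labels.

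The proteasome core is a barrel of stacked rings, with beta rings at the centre and alpha rings at the ends. The beta rings hold the cutting sites. In yeast and mammals the subunits at positions beta1, beta2 and beta5 are the proteolytic ones, with caspase-like, trypsin-like and chymotrypsin-like activity, and the other beta subunits are structural; the worm genes pbs-1, pbs-2 and pbs-5 are named for these positions. In C. elegans the endoplasmic reticulum form of SKN-1, a transcription factor with a basic region related to those of bZIP proteins, is known to raise the expression of proteasome subunit genes when proteasome function is impaired.

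The sequences around the summits of pbs-1, which carried a reproducible peak, and of pbs-6, which carried a weak one, are shown first, so that both can be read beside the values that follow. Each runs 5′ to 3′ on the strand of the gene, from 100 bp before to 100 bp after the summit in the pooled list, in build WBcel235 (ce11). Capitals mark the short SKN-1 word, ATCAT or GTCAT, on either strand, where it reads ATGAT or ATGAC on the strand shown. The pbs-1 window is chrIV:1709788-1709988, minus strand, and ends 43 bp before the annotated 5′ end of the gene. The pbs-6 window is chrIII:8244150-8244350, minus strand, and ends 58 bp before its 5′ end. Neither window holds an annotated gene. The pbs-1 window has 3 such words, and the pbs-6 window has 1.
pbs-1: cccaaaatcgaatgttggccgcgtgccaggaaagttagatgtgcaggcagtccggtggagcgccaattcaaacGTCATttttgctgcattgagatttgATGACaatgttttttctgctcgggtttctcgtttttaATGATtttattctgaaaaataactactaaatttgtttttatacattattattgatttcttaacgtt
pbs-6: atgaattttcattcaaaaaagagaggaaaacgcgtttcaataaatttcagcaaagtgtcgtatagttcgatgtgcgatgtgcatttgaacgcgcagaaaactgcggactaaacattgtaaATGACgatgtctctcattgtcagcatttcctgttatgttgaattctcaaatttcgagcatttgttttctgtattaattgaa

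Peaks stood upstream of most beta ring genes. Of the 7 genes, 5 (pbs-1, pbs-2, pbs-3, pbs-4 and pbs-7) had a summit of the optimal list, the list that passed the irreproducible discovery rate procedure, in the promoter. A promoter here begins 1000 bp upstream of an annotated 5′ end and stops 200 bp downstream of it. Over all nuclear protein-coding genes the share was 3.89%, or 777 genes. In the relaxed lists, deposited as peaks and background, 6 of 7 members had a promoter summit in the pooled list, in that of replicate 1 and in that of replicate 2, all but pbs-5. These lists hold much background by design, and 29.2%, 41.0% and 43.5% of all genes had a promoter summit in them, in the same order. The counts are descriptions: with 1 group of 2 libraries no difference between conditions can be tested, and no test of the list was made.

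The signal deposited for each peak is on the scale of its own list, with no replicate error, and is not read here as a fold enrichment. Pooled signals of the members were above those of either replicate, as at pbs-7 (142 pooled, 91.3 and 51.3 in replicates 1 and 2). Ranks below run from the strongest nuclear peak of a list downward. Optimal signals of the 5 members ran from 74.6 to 142, a ratio of 1.91, and their ranks from 35 to 176 of 870. The median rank of the 5 was 130, against 412 over the 777 genes with an optimal promoter summit. All 5 ranked above the middle of the list, whose median signal was 54.1 and whose weakest peak had a signal of 43.2.

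Of the genes named for the proteolytic positions, pbs-1 and pbs-2 had an optimal promoter summit and pbs-5 had none. At pbs-1 the optimal summit ranked 176 with a signal of 74.6. Its peak spans chromosome IV 1709718 to 1710057. In replicate 1 the peak ranked 211 of 24771 with a signal of 50.3, and in replicate 2 it ranked 158 of 28606 with a signal of 26.3. The q value was the smallest of each list, 0.00117 in replicate 1, 0.0100 in replicate 2 and 0.00147 in the pooled list. Many peaks share this smallest value, 338 of 870 in the optimal list, so that it does not single out a peak. By rank the pbs-1 peak was within the strongest 0.852% of peaks in replicate 1 and 0.552% in replicate 2. The summit lay 143 bp upstream of the 5′ end of pbs-1 in the pooled and the replicate 1 list and 155 bp upstream in replicate 2. A weaker peak farther upstream, in an intron of K08D12.3, ranked 5954 in the pooled list with a q of 0.556. Its summit was 762 bp upstream of pbs-1 and also fell in the promoter of rpi-2.

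At pbs-2 the optimal peak spans chromosome I 12968448 to 12968787 and ranked 138 with a signal of 83.0. It ranked 170 in replicate 1 (signal 54.7) and 162 in replicate 2 (signal 26.1). The summit lay 338 bp upstream of pbs-2 in the optimal and replicate 2 lists and 368 bp upstream in replicate 1, the farthest among the members with an optimal summit. It lay almost midway between pbs-2 and the divergent gene eif-6, a translation initiation factor needed for ribosome assembly, whose 5′ end was 328 bp away. A further pooled peak in that stretch, ranked 13227 of 13300, had a q of 0.959.

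For pbs-5, the gene of the chymotrypsin-like position, no list had a summit in the promoter window. The nearest summit was nevertheless a strong one. It ranked 41 in the optimal list with a signal of 135, 83 in replicate 1 (signal 72.1) and 18 in replicate 2 (signal 55.1), above every member but pbs-7 in the optimal list. It lay 1144 bp upstream of the 5′ end of pbs-5 in the optimal list, 1143 bp in replicate 1 and 1160 bp in replicate 2, just beyond the limit of 1000 bp. Its peak spans chromosome I 14721451 to 14721790. It stood in an intron of K05C4.2, a gene on the same strand that ends 110 bp upstream of pbs-5. K05C4.2 has 2 annotated 5′ ends, and the summit lay 266 bp upstream of the inner one, so that by the rule it counted for K05C4.2. When the promoter was widened to 2000 bp before and 500 bp after the 5′ end, it counted for pbs-5 too, which made 6 of 7 members, against 5.16% of all genes. Whether this peak acts on pbs-5, on K05C4.2 or on both was not tested.

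Among the structural subunits, pbs-7 had the strongest promoter peak of the beta ring. It ranked 35 in the optimal list with a signal of 142, 43 in replicate 1 (signal 91.3) and 27 in replicate 2 (signal 51.3). The peak spans chromosome I 8696260 to 8696599, and its summit lay 129 bp upstream of pbs-7, 113 bp in replicate 1 and 121 bp in replicate 2. The stretch between pbs-7 and its divergent neighbour F39H11.1 is 301 bp long, and the 5′ end of F39H11.1 was 173 bp from the summit. At pbs-3 the optimal peak, chromosome II 4955382 to 4955721, ranked 95 with a signal of 94.8. It ranked 96 in replicate 1 (signal 68.7) and 150 in replicate 2 (signal 26.6). The summit was 125 bp upstream in the optimal and replicate 1 lists and 168 bp upstream in replicate 2. Only 22 bp separate pbs-3 from ulp-2, a SUMO protease gene upstream on the same strand, and the summit fell in the annotated 3′ UTR of ulp-2.

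At pbs-4 the optimal peak, chromosome I 3908439 to 3908778, ranked 130 with a signal of 85.3. It ranked 158 in replicate 1 (signal 55.9) and 123 in replicate 2 (signal 28.7). The summit lay 138 bp upstream of the 5′ end, 149 bp in replicate 1 and 137 bp in replicate 2. No other gene had its promoter there, and the nearest gene upstream, magu-3, was 3538 bp away. The pbs-4 peak is thus the one intergenic peak of the 5 that lay in the promoter window of a beta ring gene alone.

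The gene pbs-6 had a weak peak only, and the replicates differed on it. In replicate 2 the peak ranked 672 of 28606 with a signal of 16.4. Its q there, 0.0100, was the smallest of that list, a value shared by every other member with a promoter summit. In replicate 1 the pbs-6 peak ranked 14765 of 24771 with a signal of 10.4 and a q of 0.772. In the pooled list it ranked 2504 of 13300 with a signal of 29.0, which is 0.670 times the weakest optimal signal, and a q of 0.100. As many as 9.48% of all protein-coding genes had a pooled promoter summit at least as highly ranked, 2.95% in replicate 2 and 29.9% in replicate 1. The position did not vary much: the summit lay 158 bp upstream of pbs-6 in the pooled list, 146 bp in replicate 1 and 166 bp in replicate 2, in the 352 bp between pbs-6 and cids-1, a divergent gene. The next optimal summit was 63453 bp away.

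**Figure D1:**
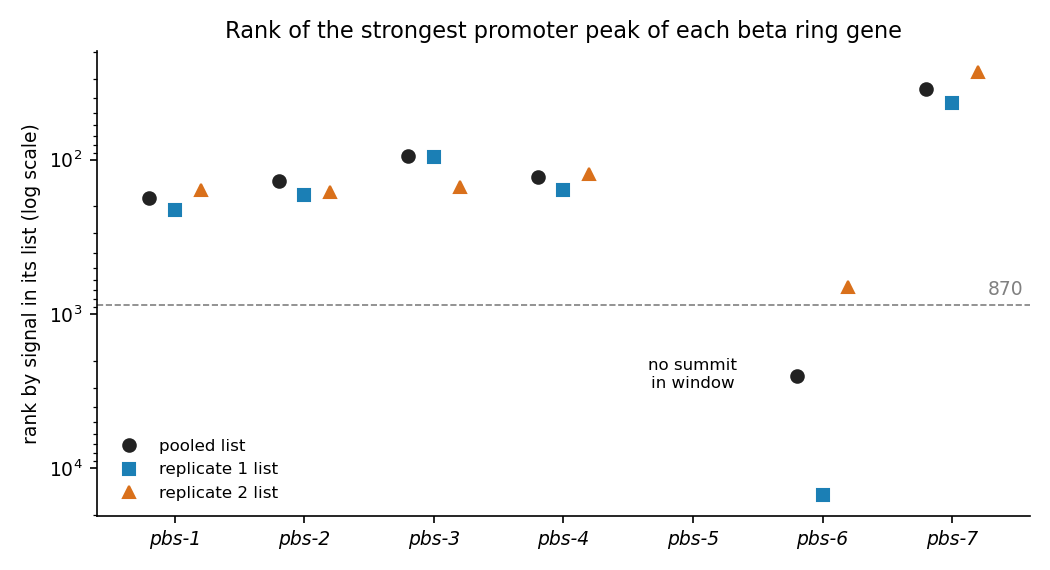
Rank by signal of the strongest promoter peak of each beta ring gene (y axis, log scale, strongest at the top) in the pooled list (circles), replicate 1 (squares) and replicate 2 (triangles); the dashed line marks rank 870, the number of nuclear optimal peaks. The pooled ranks of 5 genes run from 35 to 176, pbs-6 is above the line in replicate 2 only, and pbs-5 has no summit in the window.

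Each replicate was also taken alone, with as many of its strongest nuclear peaks as the optimal list holds, 870. From replicate 1, 5 of 7 members had a promoter summit, against 3.79% of all genes. From replicate 2, 6 of 7 had one, against 3.71%, and the added gene was pbs-6. Such disagreement was common in these lists, since 326 of the 740 genes found with replicate 2 were not among those found with replicate 1, and 230 of these had no optimal promoter summit either. The strongest pooled promoter peak of 6 members was overlapped by a peak of both relaxed replicate lists, against 20.6% of all genes, and pbs-6 was among them. In these 6, replicate summits were shifted from the pooled summit by 0 to 30 bp in replicate 1 and by 0 to 43 bp in replicate 2. For the 5 members with an optimal summit the median shift was 11 bp in replicate 1 and 8 bp in replicate 2, against 9 and 15 bp over genes with an optimal promoter summit.

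The distance of the summit from the gene varied among the members. Of the 7 genes, 4 (pbs-1, pbs-3, pbs-4 and pbs-7) had their optimal summit between 125 and 143 bp upstream of the 5′ end, pbs-2 had it at 338 bp, and pbs-5 and pbs-6 had none in the promoter. The median over these 5 summits was 138 bp upstream, which lies within the quartiles of the 777 genes (394 and 132 bp upstream, median 228 bp). It also lies within the quartiles of the alpha ring (270.0 and 123 bp, median 199 bp, 7 genes) and of the lid (282 and 120.2 bp, median 172 bp, 8 genes), and nearer to the gene than those of the base (362 and 150 bp, median 288 bp, 9 genes). These differences were not tested. The weak pbs-6 summit of the pooled list stood 158 bp upstream. Annotated 5′ ends of the members lie 0 to 40 bp from the start codon, and in worms many 5′ ends are sites of trans-splicing, so the true start of transcription may lie farther upstream.

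**Figure D2:**
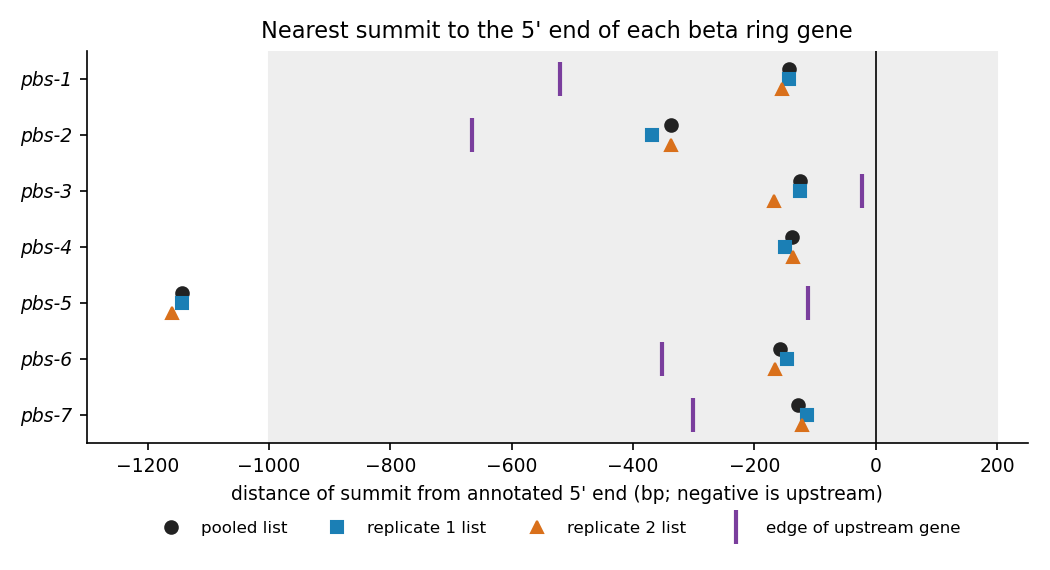
Distance of the nearest summit of the pooled, replicate 1 and replicate 2 lists from the annotated 5′ end of each beta ring gene (x axis, bp, negative is upstream), with the promoter window shaded and the near edge of the next upstream gene as a vertical bar where it is in range. In these 3 lists summits lie 113 to 168 bp upstream at pbs-1, pbs-3, pbs-4, pbs-6 and pbs-7, 338 to 368 bp at pbs-2 and 1143 to 1160 bp at pbs-5.

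Shared promoters limit what can be said of 3 of the 5 genes. The optimal summits of pbs-1, pbs-2 and pbs-7 also fell in the promoters of K08D12.3, eif-6 and F39H11.1, each divergent from its beta ring gene, and the weak pbs-6 peak in that of cids-1. A peak between divergent genes does not tell which of them it belongs to. The summit was nearer to the member in 2 of the 3 optimal cases: 143 bp from pbs-1 and 377 bp from K08D12.3, and 129 bp from pbs-7 and 173 bp from F39H11.1. Over the 777 genes, 49.8% shared their strongest optimal promoter summit with another protein-coding gene.

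Words of known factors were sought on either strand up to 100 bp from the strongest promoter summit of the 6 members that had one. For pbs-6 this was the pooled summit, which is not an optimal one, so the optimal shares below do not include its window. The long SKN-1 word, which is the short word after T and, before that, 2 bases that are A or T (NNTATCAT or NNTGTCAT), was present in 1 of 6, pbs-1, against 27.6% of the 870 optimal windows and 11.5% of windows of 201 bp centred 150 bp upstream of every protein-coding gene. It was centred 2 bp from the pbs-1 summit and holds the middle marked word of the sequence printed above. Among the 240 optimal windows with the word, 43 had it within 10 bp of the summit and the median distance was 31.5 bp. The peak upstream of pbs-5, in the intron of K05C4.2, also had this word, in 2 copies centred 33 and 43 bp from the summit.

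The short SKN-1 word was present in 5 of 6 members, all but pbs-3, against 69.9% of optimal windows and 55.2% of promoter windows. Its 9 matches were 3 at pbs-1, 2 each at pbs-4 and pbs-7, and 1 each at pbs-2 and pbs-6. At pbs-4 and at pbs-7 the pair overlaps, with centres 33 and 36 bp from the summit toward the gene. Of the 9 matches 7 lay between the summit and the 5′ end, 1 was centred on the summit and 1 lay beyond it. Over the 742 genes whose optimal summit was upstream of the 5′ end, 48.8% of 1004 matches lay on that side. This share is counted per gene, so a summit shared by divergent genes can enter it from both sides. The members were counted from their own side only, so the share is not a like measure. The side toward the gene was looked at after the positions were seen. The 9 matches come from 6 windows, including that of pbs-6, which has no optimal summit, so the count is a description only. In the order of pooled rank, pbs-7 (35) had 2 matches, pbs-3 (95) had 0, pbs-4 (130) had 2, pbs-2 (138) had 1, pbs-1 (176) had 3 and pbs-6 (2504) had 1. No relation between rank and matches was tested over these 6 genes.

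The other words were each found in 0 or 1 of the 6 windows, counts too small to set apart from the shares given beside them. TGATAA, the GATA word, was in 0 of 6 windows, against 39.2% of optimal and 22.0% of promoter windows, and stood once at the summit upstream of pbs-5, 65 bp away on the far side. The forkhead word, TGTTTAC or TGTTTGC, which PHA-4 can bind, was in 1 of 6, pbs-2, centred 7 bp from the summit, against 13.7% of optimal and 9.08% of promoter windows. The core of the antioxidant response element, TGACNNNGC, was in 1 of 6, pbs-7, where it overlaps the pair of short SKN-1 words, against 4.25% of optimal and 3.18% of promoter windows. The bZIP words TGACTCA and TGAGTCA were in 0 of 6, against 3.56% and 2.66%. The window of pbs-3 held none of these words. A match describes the letters in a window and is not a site shown to be bound, and no match says only that these letters are not there.

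**Figure D3:**
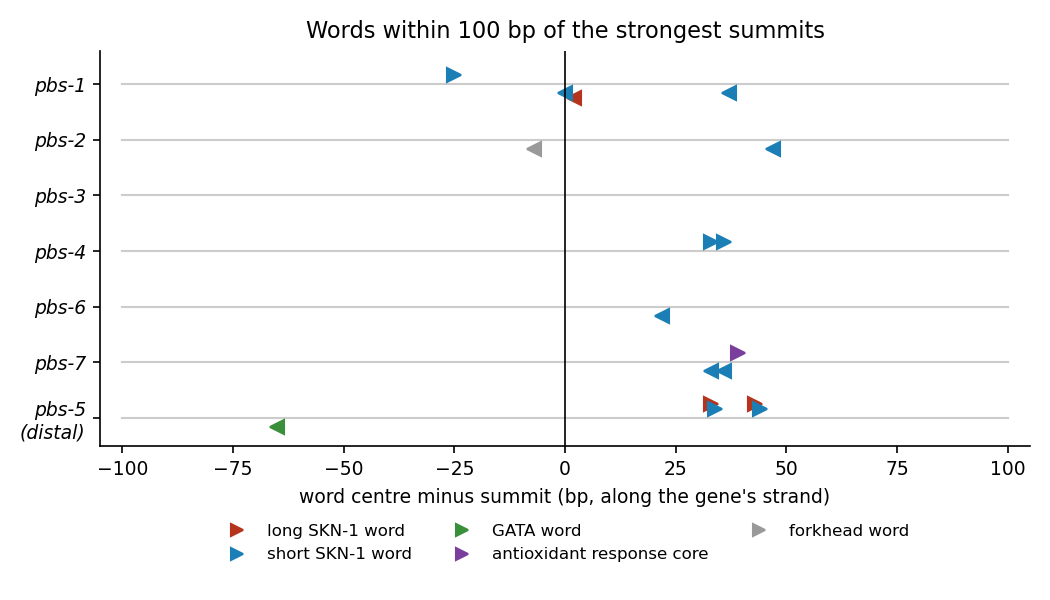
Words within 100 bp of the strongest promoter summit of 6 beta ring genes and of the summit upstream of pbs-5 (labelled distal). The x axis is the word centre minus the summit in bp along the strand of the gene, and arrows point right for a word on that strand and left for the other strand. Of the 9 short SKN-1 words at the 6 promoter summits, 7 lie to the right of the summit, at 22 to 47 bp. Among these 7 are the overlapping pairs at pbs-4 and pbs-7, and pbs-3 has no word. The side was looked at after the positions were seen, so the count is a description only.

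The other proteasome genes were set beside the beta ring. All 7 alpha ring genes (pas-1 to pas-7), which form the gated ends of the core, had an optimal promoter summit. Of the base of the regulatory particle, which holds the unfolding ATPases, 9 of 10 did, and of its lid, which removes ubiquitin, 8 of 9. Among ring genes with an optimal promoter summit the ranks were alike. The median optimal rank was 130 over 5 beta ring genes and 133 over 7 alpha ring genes, with ranges of 35 to 176 and 34 to 307. The beta ring values leave out pbs-5 and pbs-6, which had no such summit. The strongest alpha ring peak was at pas-5 (signal 146) and the weakest at pas-7 (61.2). The median rank was 27 over 9 base genes and 34 over 8 lid genes. The strongest base gene was rpt-2 (rank 7) and the weakest rpn-13 (rank 200), while in the lid rpn-12 ranked 5 and rpn-8 ranked 765. The base gene without an optimal promoter summit was rpn-10, a ubiquitin receptor, and the lid gene was dss-1. As at pbs-5, the window of 2000 bp upstream to 500 bp downstream gave rpn-10 one. That made 10 of 10 base genes, against 5.16% of all genes, while dss-1 still had none. No promoter peak of the beta ring (best rank 35) or of the alpha ring (best rank 34) was among the 30 strongest. By contrast, 9 of the base and lid genes had theirs among these 30. The share of all genes with a peak among them is not given here. The differences between the subcomplexes were not tested.

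**Figure D4:**
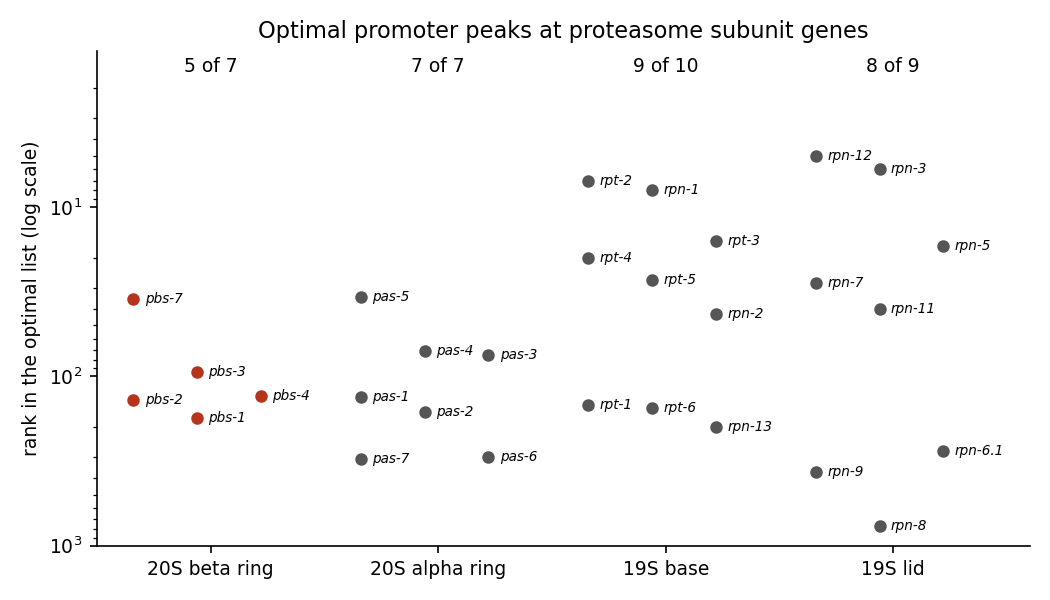
Rank of the strongest optimal promoter peak of each proteasome gene (y axis, log scale, strongest at the top) for the beta ring, the alpha ring, the base and the lid, with the number of genes that have such a peak above each column. The 5 beta ring genes fall between ranks 35 and 176, within the range of the alpha ring, and the strongest base and lid genes rank 5 to 8.

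Genes with the most similar replicate ranks were found by the distance between log10 ranks in the lists of replicates 1 and 2, which are 2 values per gene. Closest to pbs-7 (ranks 43 and 27) were rpl-3, a protein of the large ribosomal subunit (44 and 23), and rpn-11, the deubiquitinase of the proteasome lid (55 and 26). Closest to pbs-1 (211 and 158) were epg-7, an autophagy scaffold gene (216 and 171), and C26B9.5 (223 and 134). Similar ranks in 2 libraries say nothing of shared control.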

How the data were processed

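Peak lists of 2 ChIP-seq libraries were used in build ce11: replicate 1, replicate 2, both pooled, and the optimal list. The relaxed lists are peaks and background for the irreproducible discovery rate procedure, each made from its own alignments and a further file common to all lists, and the optimal list was selected from them, per the file headers. Each deposited peak has a signal value and a −log10 q value, from which q was computed. No source used here names the aligner, the caller or the cutoff. Read depth is unknown from peak lists, so no interval on a signal can be given.

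Nuclear peaks were ranked by signal within each list. Summits were assigned to all annotated 5′ ends of Ensembl release 115. A peak counted as supported by a replicate where a peak of that list overlapped it by 1 bp or more. Sequence is that of RefSeq WBcel235. The promoter step was tested on simulated summits. Python 3.11 and numpy 2.4.6 were used. The members, lists and words were chosen with earlier results of these data known, and the centre of the background promoter windows and the side of the summit on which words lay were chosen after seeing the values. Genes named are the members, those sharing their peaks, the nearest by replicate rank, the strongest and weakest of each other subcomplex and those without a peak; K05C4.2, ulp-2 and magu-3, which stand next to a member, were named after their positions were seen. The ce10 lists were not analysed here. Alternatives were other promoter windows, stricter lists, overlap rules, single replicates and word windows.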

Additional observations from a re-analysis of the deposited data

How the results depend on the processing

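The number of beta ring genes with an optimal promoter summit was 5 or 6 of 7 in every alternative run. Over all protein-coding genes the share in these runs ran from 2.06% to 5.16%. The number was 6 with the window of 2000 bp upstream (5.16% of all genes). It was also 6 where the peak interval, not the summit, had to reach the promoter (4.22%), and the added gene was pbs-5 in each case. With a single replicate's strongest peaks the number ran from 5 (3.79% of all genes) to 6 (3.71%), and pbs-6 was the gene added by replicate 2. Narrow peaks are those below the most common width of the optimal list, 340 bp, which 855 of its 870 peaks have. Without narrow peaks the beta ring kept 5 of 7, against 3.81% of all genes. The base then fell to 5 of 10 genes and the lid to 5 of 9. In the base 4 of 9 and in the lid 3 of 8 of the strongest promoter peaks are narrow. In the alpha ring 1 of 7 is narrow and in the beta ring 0 of 5. The alpha ring ran from 6 to 7 with single replicates, the base stood at 9 to 9 and the lid ran from 7 to 8. Members whose peak was overlapped in both relaxed replicate lists numbered 6 of 7, against 20.6% of all genes. They include pbs-6, whose replicate 1 peak ranked 14765 of 24771 with a q of 0.772. The number was 5 when only each replicate's strongest peaks were used, and the share of all genes under that rule is not given here. The number of members with the SKN-1 word changed most. It was 1 of 6 with the long word (27.6% of optimal windows) and 5 of 6 with the short word (69.9%). Within 150 bp of the summit the long word was in 2 of 6, where pbs-6 was added. The share of 27.6% is for windows that reach 100 bp to each side. No share is given here for the wider window, in which matches are more likely. Shared promoters stayed at 3 of 5. No paired analysis was possible because there is 1 group and no comparison between groups. Depth is unknown, so a gene with no peak, such as pbs-5 in its window, cannot be told from one below detection.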
